A study of Rattus norvegicus with 9 samples.

Results

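The genes described here are the actins and sarcomeric alpha-actinins of rat gastrocnemius, a muscle of the calf that the sciatic nerve reaches through its tibial branch. The 7 genes were taken by name: Acta1, Actc1, Acta2, Actb, Actg1, Actn2 and Actn3. All 7 were found by gene ID among the 13752 gene IDs measured, and all 7 were listed in each of the 9 libraries and passed the filter on low counts. Gene expression was measured by RNA sequencing in 3 groups of 3 libraries from male rats aged 8 weeks. In SHAM the rats had a sham operation and no stimulation. In DN the sciatic nerve was injured and no current was given. In DN-SM the sciatic nerve was injured and the muscle received current each day for 4 weeks, beginning on the day of surgery, through electrodes laid on the skin (square pulses of 300 ms at 2 Hz, with 25 V and 1 mA). Rats of all 3 groups were anaesthetised with sodium pentobarbital, shaved and fitted with electrodes. The labels give no strain, kind of nerve injury or time of collection for SHAM and DN, nor whether the 3 libraries of a group are 3 different rats, so p-values measure the spread between these samples, which may be technical.

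Actin monomers assemble into filaments, and mammals carry separate genes for actins of striated muscle, smooth muscle and the cytoplasm whose proteins are nearly identical. In a muscle fibre, actin forms the backbone of the thin filament, and alpha-actinin crosslinks the ends of thin filaments from neighbouring sarcomeres at the Z-disc. Acta1 encodes the actin of adult skeletal muscle, while Actc1, the actin of the heart, is also used by developing skeletal muscle. Acta2 encodes the actin of vascular smooth muscle, and Actb and Actg1 encode the cytoplasmic actins found in most cells. Actn2 is made in all striated fibres and in the heart, whereas Actn3 is largely restricted to fast glycolytic fibres.

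Total expected counts (the read counts that RSEM estimates per gene) were between 7926445 and 8893843 per library. Of 8 genes that define skeletal muscle 7 were measured in each group, with creatine kinase Ckm at 28454 ± 3239 FPKM in SHAM (fragments per unit of transcript length and of library size, mean ± SD, n = 3). The calcium channel subunit Cacna1s, at 320 ± 4.93 FPKM in SHAM, fell to 211 ± 19.9 in DN (log2 fold change -0.67, adjusted p = 0.0285, edgeR), a fall that did not pass without SHAM replicate 2, DN replicate 2 or DN replicate 3. The other, Ryr1, had no entry in any library, and nor had Ttn, Neb and Mylpf, which skeletal muscle expresses strongly, so a missing entry does not show low expression. The SHAM libraries differed among themselves in fibre-type genes. The summed level of 11 slow-fibre genes was 17155, 4928 and 11051 FPKM in SHAM replicates 1, 2 and 3, and that of 11 fast-fibre genes was 66137, 99781 and 82246 FPKM. All of these are bulk samples, in which fewer cells of a type and less RNA per cell cannot be told apart.

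The 7 genes together held 11.5% to 14.8% of the counts of a library, nearly all of it from Acta1. In FPKM, which is scaled to length, the order was Acta1, then the alpha-actinins, then Actb, Actg1, and last Actc1 and Acta2. Acta1 ranked first of all genes in all 9 libraries. Actn3 ranked between 18 and 37 and Actn2 between 29 and 51. Within each group the ranges of neighbours in this order were separate, except in 2 places. Actn2 and Actn3 had overlapping ranges in DN. Actc1 and Acta2 had overlapping ranges in each of the 3 groups.

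**Figure D1:**
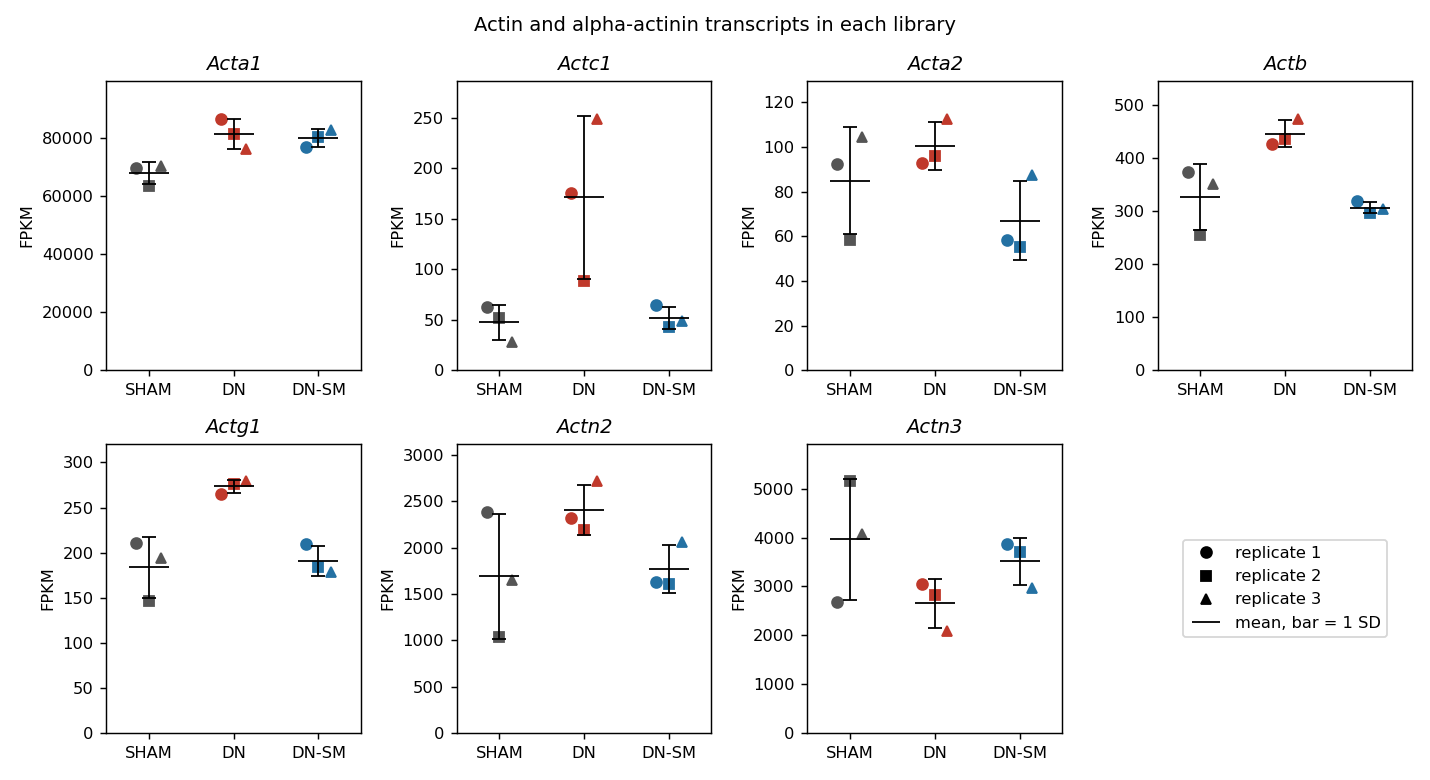
FPKM of each of the 7 genes (vertical axes, each from 0) in SHAM, DN and DN-SM. Symbols mark replicates 1 to 3, the horizontal tick is the mean and the bar is 1 SD. Actc1, Actb and Actg1 lie higher in all 3 DN libraries than in any SHAM or DN-SM library, and SHAM replicates 1 and 2 lie at opposite ends of their group for Actn2 and Actn3.

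Comparing DN with SHAM asks what nerve injury without stimulation did to these transcripts. Actc1 rose 3.43-fold and Actg1 rose 1.42-fold, and no other gene of the 7 passed an adjusted p of 0.05 by edgeR's quasi-likelihood test. These are 2 of 7 genes, beside 432 of 10129 genes tested (4.26%). DESeq2 called Actb as well, and limma-voom with sample weights called Actg1 alone. At an unadjusted p below 0.05 there were 5 of the 7 (also Actb, Actn2 and Actn3), beside 22.3% of the genes tested. The FPKM of DN and SHAM libraries did not overlap for 4 of the 7 (Acta1, Actc1, Actb and Actg1), each higher in DN, beside 22.8% of the genes tested. That share counts both directions, with 1607 genes higher in DN and 700 lower. The median log2 fold change of the 7 was 0.38, beside -0.01 over all genes.

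Comparing DN-SM with DN asks what daily stimulation of the injured muscle did. None of the 7 passed by edgeR's quasi-likelihood test, beside 1 of 10129 genes tested (0.00987%, the protease inhibitor Serpina3n). At an unadjusted p below 0.05 there were 4 of 7 (Actc1, Acta2, Actb and Actg1), beside 17.6% of the genes tested. DESeq2 called 3 (Actc1, Actb and Actg1), limma-voom with sample weights called 3 (Acta2, Actb and Actg1), and limma on log2(FPKM + 1) called 0. The FPKM ranges did not overlap for 5 of the 7 (Actc1, Acta2, Actb, Actg1 and Actn2), each lower in DN-SM, beside 32.7% of the genes tested. That share counts both directions, with 1155 genes higher in DN-SM and 2160 lower. The median log2 fold change of the 7 was -0.42, beside -0.01 over all genes. Both comparisons use the same 3 DN libraries, so a DN library that is high or low by chance moves both, in opposite directions.

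Comparing DN-SM with SHAM asks how far the stimulated injured muscle stood from the uninjured one. None of the 7 passed by edgeR, 0 had an unadjusted p below 0.05, and DESeq2 and limma-voom also called 0, beside 85 of 10129 genes tested by edgeR (0.839%). Acta1 was the 1 gene of 7 whose FPKM ranges did not overlap, beside 16.8% of the genes tested, and it was higher in DN-SM. The median log2 fold change of the 7 was 0.09, beside 0.02 over all genes. A p above the threshold does not show that the levels were alike: the 95% interval of the log2 fold change ran from -0.71 to 1.04 for Actc1 and from -0.18 to 0.35 for Actg1.

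**Figure D2:**
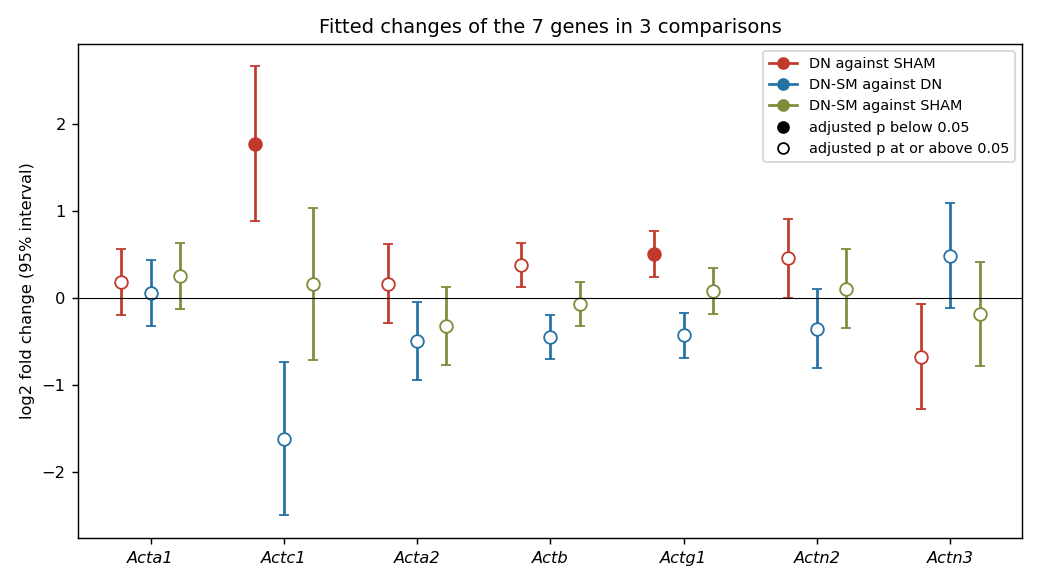
Log2 fold change of each gene with its 95% interval from the edgeR fit, with 1 colour for each of the 3 comparisons. Filled points passed an adjusted p of 0.05, which Actc1 (1.78) and Actg1 (0.51) did in DN against SHAM. Open points did not pass.

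Of the striated actins, Acta1 was expressed far above Actc1. The promoters of both are shown because Actc1 is the gene of the 7 with the largest fitted change and Acta1 the one with the highest level. They are the RefSeq windows of 250 bases before to 50 bases after the start of transcription in the rat assembly GRCr8, each on the minus strand: chr19:68784145-68784444 for Acta1 and chr3:121271778-121272077 for Actc1. Capitals mark CArG boxes, the binding motif of serum response factor Srf, an activator of actin genes. They include boxes with at most 1 mismatch in the core of A and T.
Acta1: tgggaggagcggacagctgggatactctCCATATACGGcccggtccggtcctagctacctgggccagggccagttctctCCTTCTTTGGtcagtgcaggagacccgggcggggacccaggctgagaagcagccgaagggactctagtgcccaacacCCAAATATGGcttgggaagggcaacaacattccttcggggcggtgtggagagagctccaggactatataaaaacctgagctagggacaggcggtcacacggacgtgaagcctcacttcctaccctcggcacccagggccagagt
Actc1: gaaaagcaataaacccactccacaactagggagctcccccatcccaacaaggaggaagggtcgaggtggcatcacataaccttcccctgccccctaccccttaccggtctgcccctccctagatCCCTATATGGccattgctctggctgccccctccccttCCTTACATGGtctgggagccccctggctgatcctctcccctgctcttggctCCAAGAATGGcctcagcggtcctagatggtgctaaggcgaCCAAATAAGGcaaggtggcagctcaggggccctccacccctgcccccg

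Each of these windows holds 1 exact CArG box, CCAAATATGG at position 157 of the Acta1 window and CCAAATAAGG at position 253 of the Actc1 window, counted from the window's first base. The first 250 bases lie before the annotated start of transcription, so the exact box of Acta1 lies before it and that of Actc1 after it. An exact box occurs in 1.64% of all 33469 RefSeq rat promoter windows of this length. With the mismatch allowed, Acta1 has 3 boxes and Actc1 has 4, and 9.42% of windows have at least 1. The motif reads as itself on the other strand, so 1 strand covers both. Acta1 also holds 1 CATTCC (in 14.2% of windows), which is the motif of Tead factors, and 1 TATAAA (also in 14.2%), both searched on either strand. Neither was found in the Actc1 window.

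Actc1 was at 62.5, 51.5 and 28.2 FPKM in the SHAM libraries, 175.5, 88.6 and 249 in DN, and 64.4, 42.7 and 48.2 in the DN-SM group. The 3 DN libraries lay above all other libraries, with DN replicate 2 the lowest of them, and the DN-SM libraries lay within or close to the SHAM range. The log2 fold change was 1.78 (SE 0.39, adjusted p = 0.0441, edgeR) in DN against SHAM. For DN-SM against DN it was -1.62 (SE 0.38, adjusted p = 0.144, edgeR; unadjusted p = 0.00282). The rise passed the threshold in 1 of the 9 fits that left out 1 library, the fit without DN replicate 2 (adjusted p = 0.0112), and the adjusted p was 0.0599 to 0.157 in the other fits. Of 13 other settings, 5 also gave an adjusted p below 0.05, and the log2 fold change was 1.52 to 1.80 over them.

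Acta1 was at 69591, 63509 and 70217 FPKM in SHAM, 86465, 81092 and 76206 in DN, and 76616, 80252 and 82681 in the DN-SM group. In deposited FPKM each library of injured muscle, stimulated or not, was above each SHAM library. FPKM is scaled to library size without the TMM factors of the edgeR fit, which were 0.95 for SHAM replicate 3 and 1.10 for DN replicate 3. A higher factor lowers the scaled level, so this separation need not hold on the scale of the test. Acta1 took 10.3% ± 0.56 of all counts in SHAM, 12.3% ± 0.78 in DN and 12.1% ± 0.46 in the DN-SM group (SD, n = 3). The test did not call these differences: the log2 fold change was 0.19 (95% interval -0.19 to 0.57, adjusted p = 0.562, edgeR) in DN against SHAM and 0.26 (adjusted p = 0.574, edgeR) in DN-SM against SHAM. Between DN-SM and DN it was 0.06 (adjusted p = 0.868, edgeR).

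Acta1 exceeded Actc1 by between 306 and 2490 times in FPKM. Actc1 made up 0.0703% ± 0.0265 of the sum of both in SHAM, 0.212% ± 0.109 in DN and 0.0651% ± 0.0165 in the DN-SM group (SD, n = 3). The protein sequences of the 2 actins are nearly identical and RSEM divides reads that fit several genes. The expected counts of Actc1 and Acta1 were not whole numbers (within 0.005) in any of the 9 libraries, so part of their reads was divided. The low Actc1 level is uncertain for that reason. Those of Actb, Actg1, Actn2 and Actn3 were also whole in 0 of 9 libraries, so part of their reads was divided too.

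Other genes of developing muscle were measured beside Actc1. The list of embryonic and neonatal sarcomere genes also holds Ncam1 and the receptor subunit Chrng, whose proteins are not part of the sarcomere. Of its 6 tested genes, 3 rose in DN against SHAM and none fell, with a median log2 fold change of 1.21. The embryonic myosin Myh3 was at 3.79 ± 2.38 FPKM in SHAM and rose to 21.2 ± 7.75 in DN (a log2 fold change of 2.43 with adjusted p = 0.0361, edgeR). Troponin T Tnnt2, the heart form that developing skeletal muscle also makes, rose by a log2 fold change of 1.34 (adjusted p = 0.0396, edgeR), and the adhesion molecule Ncam1 by 1.07 (adjusted p = 0.0281, edgeR). Myh3 and Tnnt2 each passed in 3 of the 9 fits without 1 library, and Ncam1 in 5. The list's count of 3 became 2 without SHAM replicate 1, 1 without SHAM replicate 2, without DN replicate 2 and without either of DN-SM replicates 1 and 2, and 0 without DN replicate 1 or 3. Their summed level with the rest of the list was 34.9 to 43.0 FPKM in SHAM, 64.1 to 93.1 in DN and 43.9 to 44.7 in DN-SM. The list's median was -0.66 in DN-SM against DN, where none of the 6 passed by edgeR, with 2 at an unadjusted p below 0.05.

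Of 7 genes largely restricted to the heart 4 were measured. Troponin I Tnni3 was at 0.537 ± 0.25 FPKM in SHAM, 1.74 ± 0.405 in DN and 0.403 ± 0.335 in the DN-SM group. All 3 DN libraries were above all others for Tnni3, as for Actc1, but its level was too low for the filter and it was not tested. Cardiac myosin-binding protein Mybpc3 had a mean of at most 0.0367 FPKM in any group. The natriuretic peptide genes Nppa and Nppb and the atrial light chain Myl7 had no entry in any library, which, as for Ryr1, does not show low expression. Myh6, a heart myosin closely similar to the slow-fibre myosin Myh7, held most of the list's summed level, which was 45.6 to 141 FPKM in SHAM, 143 to 206 in DN and 80.0 to 194.5 in DN-SM. Of this list 2 genes, Myh6 and Ryr2, were tested in DN against SHAM and none passed by edgeR. The 1 gene at an unadjusted p below 0.05 was Ryr2, and its fitted change was downward, -0.41 in log2 units (adjusted p = 0.19, edgeR). That of Myh6 was upward, 0.685 in log2 units.

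Acta2, the actin of vascular smooth muscle, did not pass in any comparison by edgeR, and limma-voom with sample weights called it lower in DN-SM than in DN (log2 fold change -0.59, adjusted p = 0.0459). It was at 92.2, 58.4 and 104.4 FPKM in SHAM, at 93.0, 95.8 and 112.7 in the DN libraries, and at 58.2, 55.2 and 87.4 in the DN-SM libraries. SHAM and DN overlapped, while all 3 DN-SM libraries were below all 3 DN libraries. The log2 fold change was 0.17 (95% interval -0.28 to 0.62, adjusted p = 0.671, edgeR) in DN against SHAM. In DN-SM against DN it was -0.49 (95% interval -0.94 to -0.04, adjusted p = 0.25, edgeR; unadjusted p = 0.0366). Without SHAM replicate 2, which held the lowest SHAM value, the log2 fold change of DN against SHAM was -0.02. The expected count of Acta2 was a whole number in 7 of 9 libraries, so few of its reads were divided with other genes.

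Smooth muscle and pericyte markers were measured as a list of 15. In DN against SHAM, 1 rose, the adhesion molecule Mcam (log2 fold change 0.59, adjusted p = 0.0429, edgeR), and 1 fell, the actin-nucleating leiomodin Lmod1 (-1.10, adjusted p = 0.015, edgeR). Mcam passed in 2 of the 9 fits without 1 library. The smooth muscle protein transgelin, Tagln, was at 83.5 ± 25.9 FPKM in SHAM, 99.8 ± 2.10 in DN and 63.7 ± 14.8 in the DN-SM group, the same order as Acta2. The markers Myh11 and Cnn1 had another order, highest in SHAM. Myh11 was at 7.29 ± 2.20, 6.70 ± 1.06 and 5.85 ± 1.63 FPKM in SHAM, DN and DN-SM, and Cnn1 at 3.48 ± 2.37, 2.69 ± 0.39 and 1.97 ± 0.534. Of the 15 markers, 12 had a log2 fold change above 0 in DN against SHAM and 3 in DN-SM against DN. Desmin, which fibres also make, held most of the list's summed level. Of the rest, Mustn1, also made by muscle fibres, was at 207 ± 66.2, 371 ± 121 and 358 ± 90.0 FPKM in SHAM, DN and DN-SM. Without desmin and Mustn1, exclusions made after their levels were seen, the sum of the other 13 was 186 to 294 FPKM in SHAM, 311 to 355 in DN and 232 to 276 in the DN-SM group. The part of these cells in the Acta2 values was not tested.

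The cytoplasmic actins Actb and Actg1 were both higher in all 3 DN libraries than in any other library, and in DN against SHAM Actg1 alone passed by edgeR. The Actg1 promoter (RefSeq, GRCr8, chr10:106120902-106121201, minus strand) is shown because it carries 1 exact CArG box, CCATATATGG at position 161, as the windows of the striated actins do.
Actg1: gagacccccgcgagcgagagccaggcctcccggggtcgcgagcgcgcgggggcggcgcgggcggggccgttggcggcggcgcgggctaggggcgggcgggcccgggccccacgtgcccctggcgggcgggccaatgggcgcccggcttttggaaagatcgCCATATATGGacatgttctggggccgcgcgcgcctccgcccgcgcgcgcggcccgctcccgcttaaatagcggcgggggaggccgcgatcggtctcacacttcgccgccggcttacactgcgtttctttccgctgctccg

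This window is rich in GC, at 76.3%, against 60.3% for Acta1 and 60.7% for Actc1. It holds 6 matches to GGGCGG, the motif of Sp factors, on either strand, against 2 in the Acta1 window and 0 in that of Actc1, and 33.1% of all windows hold at least 1. It has no TATAAA. Matching letters in a window are a description and do not show that a factor binds there. No exact CArG box lay in the windows of Acta2, Actn2 or Actn3, and with the mismatch allowed Acta2 had 2 and the alpha-actinins 0. Windows were matched for 6 of the 7 genes, all but Actb.

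Actg1 was at 211, 146 and 194 FPKM in SHAM, 265.5, 276 and 279 in DN, and 209.6, 184 and 178 in the DN-SM group. The DN libraries lay close together above the rest, and DN-SM lay within the SHAM range. The log2 fold change was 0.51 (SE 0.12, adjusted p = 0.0377, edgeR) in DN against SHAM. In DN-SM against DN it was -0.42 (SE 0.12, adjusted p = 0.155, edgeR; unadjusted p = 0.00391). The rise passed in 1 of the 9 fits that left out 1 library, the fit without SHAM replicate 3 (adjusted p = 0.0171), and the adjusted p was 0.0524 to 0.121 in the other fits, highest without SHAM replicate 2. It passed in 9 of 13 other settings, with a log2 fold change of 0.48 to 0.59.

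Actb was at 374, 256 and 351 FPKM in SHAM, 426, 437 and 474 in DN, and 318, 297 and 304 in the DN-SM group. As for Actg1, SHAM replicate 2 was the lowest library and each DN library was above all others. The log2 fold change was 0.38 (SE 0.12, adjusted p = 0.0854, edgeR) in DN against SHAM and -0.44 (SE 0.12, adjusted p = 0.144, edgeR) in DN-SM against DN. DESeq2 called the first of these (adjusted p = 0.0499), as did edgeR without SHAM replicate 3 (adjusted p = 0.0338). In a fit of DN and DN-SM alone, both cytoplasmic actins passed as lower in DN-SM, Actb with an adjusted p of 0.0181 and Actg1 with 0.034 (edgeR); over the 13 other settings for DN-SM against DN the adjusted p of each ranged up to 0.267.

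The proportion between the cytoplasmic actins varied little. Actb exceeded Actg1 in every library, by a ratio of 1.52 to 1.81. Actg1 made up 36.0% ± 0.386 of their sum in SHAM, 38.1% ± 0.877 in DN and 38.3% ± 1.39 in the DN-SM group (SD, n = 3). The SHAM share lay below every library of either injured group. Actb and Actg1 summed to 510 ± 96.3, 719 ± 31.2 and 497 ± 26.6 FPKM in SHAM, DN and DN-SM.

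Cells other than fibres also make cytoplasmic actins, and some markers of such cells were higher in DN. Of 12 endothelial markers 5 rose in DN against SHAM (median log2 fold change 0.58). The log2 fold change was above 0 for 10 of the 12, and below it for Flt1 (-0.39) and Kdr (-0.09). Of 9 Schwann cell and nerve markers 3 rose (median 1.00), and 9 of 9 were above 0. Over all genes tested, 4.26% were called. Without SHAM replicate 1 the endothelial and Schwann cell counts called were 3 and 1, and without SHAM replicate 2 they were 2 and 1. Without DN replicates 1, 2 and 3 they were 4, 2 and 0 for endothelial markers and 0, 1 and 0 for Schwann cell markers. Without DN-SM replicates 1, 2 and 3 they were 3, 3 and 5 for endothelial markers and 1, 3 and 5 for Schwann cell markers. Over the 9 fits without 1 library they ranged from 0 to 6 and from 0 to 5. The summed level was 179 to 226 FPKM in SHAM, 270 to 354 in DN and 233 to 257 in DN-SM for endothelial markers. It was 74.2 to 81.5, 155 to 338 and 89.6 to 193 FPKM for Schwann cell markers. Of 12 fibroblast markers 1 rose, Thy1 (log2 fold change 0.94, adjusted p = 0.0499, edgeR), with a median of -0.01, and it passed in 1 of the 9 fits without 1 library. Of 12 tested leukocyte markers none passed by edgeR, DESeq2 or limma, 0 had an unadjusted p below 0.05, and the median was 0.08. The part of these cells in the Actb and Actg1 values was not tested.

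**Figure D3:**
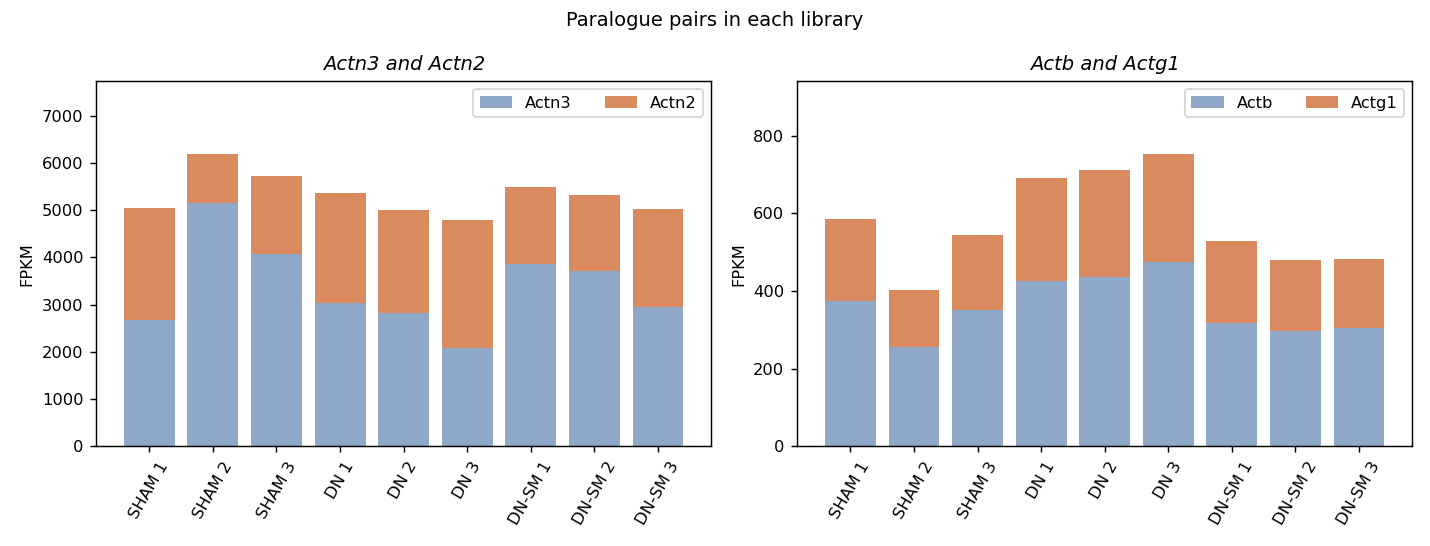
Stacked FPKM of Actn3 with Actn2 (left) and Actb with Actg1 (right) in each of the 9 libraries, from 0. The alpha-actinin sum stays between 4801 and 6189 FPKM while its composition varies, and the cytoplasmic actin sum is higher in DN while its composition varies little.

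The sarcomeric alpha-actinins differed from the actins in that their sum varied less than each gene did. Neither passed in any comparison by edgeR with all 9 libraries. Actn2 was at 2385, 1038 and 1653 FPKM in SHAM, 2314, 2192 and 2712 in DN, and 1633, 1605 and 2063 in the DN-SM group. Actn3 was at 2673, 5151 and 4068 FPKM in SHAM, 3044, 2822 and 2088 in DN, and 3863, 3716 and 2960 in the DN-SM group. SHAM replicate 1 was high in Actn2 and low in Actn3, SHAM replicate 2 was the reverse, and DN replicate 3 was the single library with more Actn2 than Actn3.

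In DN against SHAM the log2 fold change was 0.46 for Actn2 (95% interval 0.00 to 0.92, adjusted p = 0.222, edgeR) and -0.67 for Actn3 (95% interval -1.28 to -0.07, adjusted p = 0.18, edgeR). Between DN-SM and DN it was -0.35 for Actn2 (adjusted p = 0.397, edgeR) and 0.49 for Actn3 (adjusted p = 0.367, edgeR). The SHAM libraries at the ends of the range changed the size of the first comparison. Without SHAM replicate 1 the log2 fold changes were 0.69 and -0.94, and Actn3 passed (adjusted p = 0.0465, edgeR). Without SHAM replicate 2 they were 0.23 and -0.39, and neither passed.

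Actn2 made up 30.9% ± 15.3 of the sum of both alpha-actinins in SHAM, 47.8% ± 7.54 in DN and 33.7% ± 6.43 in the DN-SM group (SD, n = 3). The SHAM shares were 47.2%, 16.8% and 28.9%, so that the SHAM range enclosed all of DN-SM and overlapped DN. The DN shares (43.2%, 43.7% and 56.5%) were all above those of DN-SM (29.7%, 30.2% and 41.1%). The sum itself was 5656 ± 569, 5057 ± 281 and 5280 ± 239 FPKM, and the highest library was 1.29 times the lowest. Acta1 was 12.1 ± 1.76 times this sum in SHAM, 16.1 ± 0.163 times in DN and 15.2 ± 1.26 times in DN-SM, with no SHAM library reaching the lowest library of either injured group.

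Fibre-type genes differed between the same libraries as the alpha-actinin share. The summed FPKM of the 11 slow-fibre genes was 17265, 16859 and 22964 in DN and 8625, 8736 and 19189 in the DN-SM group. The library with the lowest slow-fibre sum, SHAM replicate 2 at 4928, also had the lowest Actn2 share, and DN replicate 3 had the highest of both. In DN against SHAM 11 of 11 slow-fibre genes had a log2 fold change above 0 (median 0.68), 1 had an unadjusted p below 0.05, and none passed by edgeR. For the 11 tested fast-fibre genes the median was -0.23, 2 had an unadjusted p below 0.05 and none passed by edgeR. The part of fibre composition in the alpha-actinin values was not tested.

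**Figure D4:**
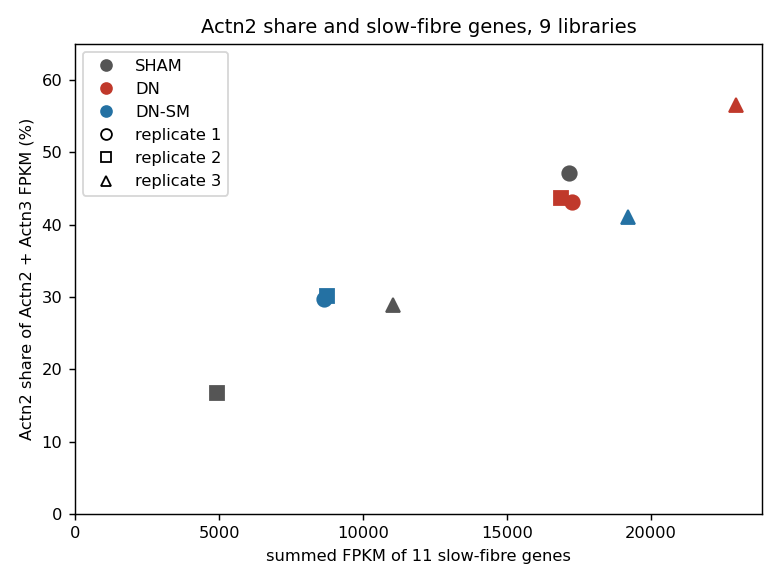
Share of Actn2 in the FPKM of Actn2 and Actn3 (vertical axis, percent) against the summed FPKM of 11 slow-fibre genes (horizontal axis) in 9 libraries, coloured by group with a symbol per replicate. SHAM spans from 16.8% in the library with the lowest slow-fibre sum to 47.2% in its library with the highest.

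The genes that build, cap and anchor actin filaments were counted from lists. Of 21 tested genes of actin monomer binding and turnover, 3 rose in DN against SHAM, none fell, and 19 had a log2 fold change above 0 (median 0.26, beside -0.01 over all genes). Wdr1, which speeds filament disassembly together with cofilin, rose by a log2 fold change of 0.60 (adjusted p = 0.0136, edgeR), with 46.7 ± 5.20 FPKM in SHAM and 74.1 ± 7.39 in DN. Thymosin beta-4, Tmsb4x, which holds actin monomers, rose from 252 ± 42.5 to 388 ± 12.1 FPKM (0.56, adjusted p = 0.0258, edgeR). The non-muscle cofilin Cfl1, which severs filaments, rose from 64.7 ± 10.2 to 106 ± 20.0 FPKM (0.63, adjusted p = 0.0262, edgeR). Wdr1 passed in 8 of the 9 fits without 1 library, Cfl1 in 5 and Tmsb4x in 4. The count of the list was 0 to 4 over these fits: 1 without SHAM replicate 1, 2 without SHAM replicate 2, and 2, 1 and 0 without DN replicates 1, 2 and 3.

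When DN-SM was set against DN, 4 of these 21 genes had a log2 fold change above 0 (median -0.19), and none passed by edgeR, DESeq2 or limma, with 5 at an unadjusted p below 0.05. The levels in DN-SM were 64.6 ± 3.33 FPKM for Wdr1, 295 ± 15.0 for Tmsb4x and 75.5 ± 7.63 for Cfl1, between those of SHAM and DN. For Wdr1 the log2 fold change was -0.10 in DN-SM against DN and 0.49 in DN-SM against SHAM (adjusted p = 0.0517, edgeR). For Tmsb4x these changes were -0.301 and 0.255, and for Cfl1 -0.382 and 0.251. In DN-SM against SHAM none of the 21 passed by edgeR, 4 had an unadjusted p below 0.05, DESeq2 and limma-voom each called 1, and the median was 0.14.

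Of 13 tested genes of thin filament capping, nucleation and length, 1 fell in DN against SHAM and none rose. This was Lmod1, the smooth muscle leiomodin, at 4.16 ± 0.28 FPKM in SHAM, 2.05 ± 0.0985 in DN and 1.98 ± 0.569 in the DN-SM group. It also fell in DN-SM against SHAM (log2 fold change -1.06, adjusted p = 0.0361, edgeR). The fall passed in 8 of the 9 fits without 1 library in DN against SHAM and in 2 of 9 in DN-SM against SHAM. The list's medians were -0.17 in DN against SHAM and 0.22 in DN-SM against DN.

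None of the 17 tested Z-disc partners of alpha-actinin passed in DN against SHAM by edgeR, 3 had an unadjusted p below 0.05, DESeq2 called 1 and limma called 0. The median log2 fold change was 0.05. Calsarcin-2, Myoz1, which is found in fast fibres, was at 2822 ± 497, 1985 ± 175 and 2195 ± 207 FPKM in SHAM, DN and DN-SM, with a log2 fold change of -0.59 (adjusted p = 0.0934, edgeR) in DN against SHAM. Ldb3, whose protein binds alpha-actinin at the Z-disc, was at 1955 ± 373, 2669 ± 39.8 and 2556 ± 202 FPKM (0.36, adjusted p = 0.145, edgeR).

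Other parts of the actin machinery gave no calls by edgeR in DN against SHAM. Of 9 subunits of the Arp2/3 complex, which starts branched filaments, none passed by edgeR or DESeq2, limma-voom called 1, and 4 had an unadjusted p below 0.05 (median 0.17). The alternative subunits Arpc1a and Arpc1b had log2 fold changes of 0.36 and 0.49 (adjusted p = 0.0999 and 0.102, edgeR). A list of 14 tested genes covered the cytosolic chaperonin and prefoldin, which fold new actin. It also holds Unc45b and Pdcl3, which are subunits of neither. None of the 14 passed by edgeR, DESeq2 or limma and 2 had an unadjusted p below 0.05 (median -0.07). A list of 5 tested genes held other actins and non-muscle alpha-actinins, and also the actin-related proteins Actr1a and Actr1b. None of the 5 passed by edgeR, DESeq2 or limma, and 0 had an unadjusted p below 0.05. The median of 0.17 is the value of Actr1a. Smooth muscle gamma actin Actg2 was at 4.47 ± 2.34, 6.87 ± 2.09 and 2.51 ± 1.65 FPKM in SHAM, DN and DN-SM, with a log2 fold change of -1.36 in DN-SM against DN (adjusted p = 0.195, edgeR). It is named for its near-identity to Acta2, after its values were seen.

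In the Srf pathway, 1 of 12 tested genes rose in DN against SHAM, the AP-1 subunit Junb, by a log2 fold change of 0.86 (adjusted p = 0.036, edgeR). It was at 10.1 ± 1.26 FPKM in SHAM, 19.5 ± 2.29 in DN and 9.45 ± 2.59 in the DN-SM group. It passed in 3 of the 9 fits without 1 library. Fos, the partner of Junb, was lower in DN-SM than in SHAM, at 1.77 ± 0.807 against 8.09 ± 3.79 FPKM (-2.17, adjusted p = 0.0498, edgeR), which passed in 1 of the 9 fits without 1 library, that without SHAM replicate 3. Srf itself was at 39.7 ± 3.46, 40.4 ± 5.83 and 36.1 ± 4.07 FPKM, with a log2 fold change of -0.04 in DN against SHAM (adjusted p = 0.908, edgeR). The list's medians were -0.02 in DN against SHAM and -0.32 in DN-SM against DN.

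**Figure D5:**
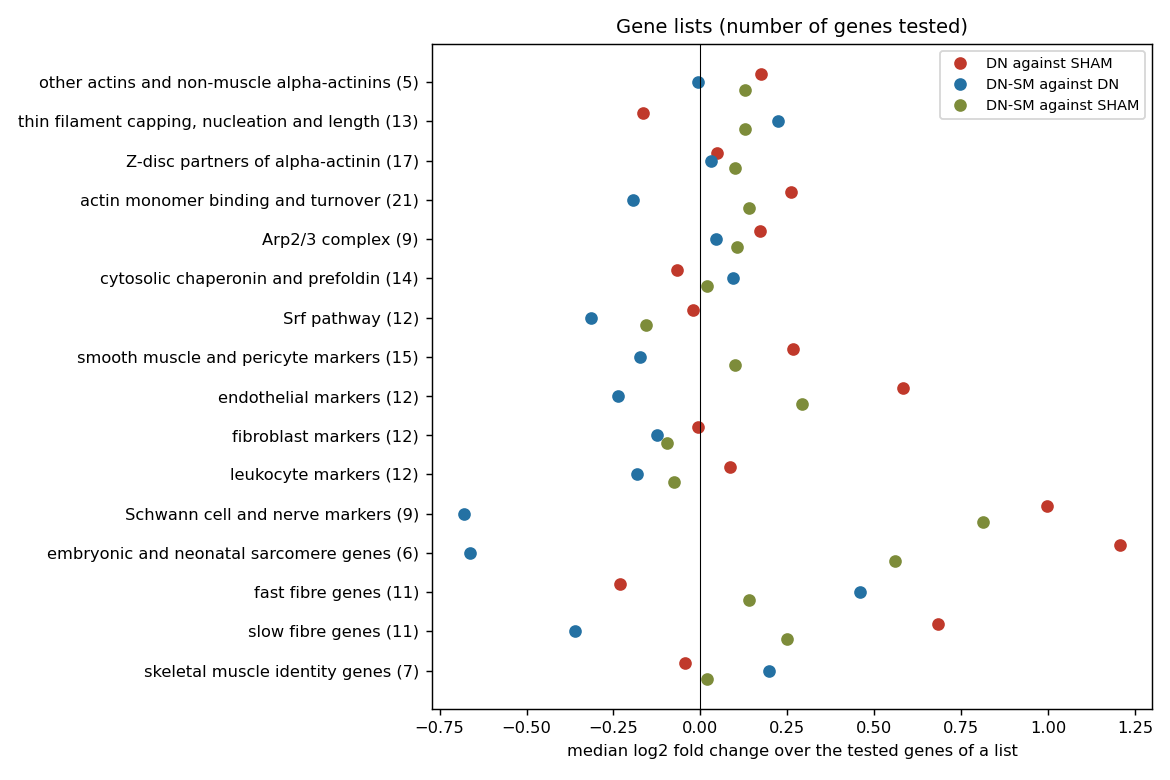
Median log2 fold change over the tested genes of each list (number of genes in brackets) in the 3 comparisons. Schwann cell markers (1.00) and the embryonic sarcomere list (1.21), which also holds Ncam1 and Chrng, lie farthest right in DN against SHAM. The median of actin monomer binding and turnover is 0.26.

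The genes whose log2 CPM (counts scaled to library size) followed each member most closely over the 9 libraries were taken among 5396 genes of at least 5 FPKM on average, as a description with no test. The 9 points share their libraries and fall into 3 groups. For Acta2 the nearest was Tagln (Pearson's r of 0.963), followed by Phb2 and Pebp1 (0.943 and 0.942). For Actn2 it was Myl2, the slow-fibre light chain (0.979), then Vegfb and Tln1 (0.971 and 0.965). For Actn3 it was Six2 (0.982), then Atp1b2 and Gpt2 (both 0.977). Six2 was at 24.1 ± 10.7, 16.2 ± 3.85 and 22.4 ± 4.71 FPKM in SHAM, DN and DN-SM.

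Actb was followed most closely by Pygo2 (0.987), Tmem127 (0.966) and Cdk4 (0.96). Actg1 was followed by Capns1 (0.975), Gm2a (0.974) and Tcf3 (0.971). Capns1, the small subunit of calpain proteases, was at 177 ± 36.8, 269 ± 12.3 and 192 ± 11.8 FPKM in SHAM, DN and DN-SM. The likeness of Actc1 was highest to Rnpep (0.954), Efna1 (0.951) and Lrg1 (0.927), and that of Acta1 to Mxd4 (0.91), Fermt3 (0.894) and H2az2 (0.889). Acta1 thus had the lowest first likeness of the 7 genes.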

How the data were processed

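Gastrocnemius RNA (1 µg per library, Trizol extraction) was sequenced on a BGISEQ-500, per the labels' protocols. The deposited files give an expected count per gene, the estimate of RSEM per the file headers, with no normalization by the authors. The deposited FPKM values were scaled by the authors to transcript length and library size, per the file headers. The TMM factors of the test were not applied to them. The tools were HISAT2, RSEM and GATK and the build rn6, per the submitters' processing notes; versions are not given in the sources used here. A gene that a library did not list was taken as 0. Symbols came from RefSeq (GRCr8): 13649 IDs matched by gene ID, 7 by transcript, and 96 had no symbol. Promoter windows came from the same assembly.

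Counts were rounded to whole numbers before the two-sided quasi-likelihood F test of edgeR 4.0.16 in R 4.3.3, run with TMM factors and filterByExpr (minimum count 10, minimum total 15). All 9 libraries shared 1 fit, with group as its single term. P-values were adjusted by Benjamini-Hochberg over 10129 genes, with a threshold of 0.05. The depth of 7926445 to 8893843 counts per library and 3 libraries per group limit the precision, above all for genes with few counts. The test was checked on simulated data.

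Alternatives included RLE and upper-quartile factors, DESeq2 1.42.0, limma 3.58.1 (voom with sample weights, or with trend on log2(FPKM + 1) or log2(FPKM + 0.1)), other filters, libraries of the compared groups alone, library sizes without the 20 most abundant genes, removal of a trend with transcript length, the replicate number as a block, and each library left out in turn. Without a library, the group left with 2 was still tested. Leaving libraries out for the list counts was added after the data were seen.

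The 7 genes and the 17 gene lists were chosen with earlier results of these data known. Of 212 different list genes 192 were measured. From each list the text names genes past the threshold, or those of smallest p in DN against SHAM, and from each cell type list some of the highest or of smallest p; not all genes so taken are printed.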

Additional observations from a re-analysis of the deposited data

How the results depend on the processing

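Of 462 log2 fold changes of the 7 genes under alternative settings, 406 kept their direction and side of the threshold. Another 28 kept the direction but no longer passed, 14 passed newly and 14 changed sign. The cause was not tested. Most of these changes were not called in the main fit, so the 406 say little about the calls. All 28 losses were of the 2 calls in DN against SHAM. Actc1 passed in 5 of 13 other settings and in 1 of 9 fits without 1 library. Actg1 passed in 9 of 13 and in 1 of 9. In DN against SHAM, 2 of the 7 genes were called; DESeq2 called 3, and 1 was called by limma-voom with sample weights, with no filter, and by limma on log2(FPKM + 1) or log2(FPKM + 0.1). With only the groups compared, with no filter on FPKM, and with the length trend removed 0 were called. Leaving out 1 library gave 0 to 2. All genes called numbered 432, against 770 by DESeq2, 156 with only the groups compared, and 278, 250 and 131 by limma on FPKM with a pseudocount of 1, of 0.1, and without a filter; leaving out 1 library gave 58 to 1183. In DN-SM against DN, 0 of the 7 were called, against 3 by DESeq2, 3 by limma-voom and 2 with only the groups compared (0 to 2 without 1 library). All genes called numbered 1, against 222, 628 and 716 under the same settings and 0 by limma on log2(FPKM + 0.1), with 0 to 416 without 1 library. In DN-SM against SHAM all genes called numbered 85, against 266 by DESeq2, 28 with only the groups compared and 47, 43 and 25 by limma on FPKM (15 to 137 without 1 library), and 0 of the 7 genes were called under each of these settings. The turnover list's 3 calls ranged from 0 to 4 without 1 library, and the 3 of the embryonic sarcomere list from 0 to 3.

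Fold changes that changed sign were small. Without 1 library the log2 fold change of Acta2 in DN against SHAM ranged from -0.017 to 0.38, and that of Acta1 in DN-SM against DN from -0.017 to 0.153; limma on FPKM gave -0.024 with each pseudocount and filter for the latter. In DN-SM against SHAM the ranges without 1 library were -0.084 to 0.317 for Actc1, -0.178 to 0.025 for Actb, -0.021 to 0.159 for Actg1, -0.114 to 0.344 for Actn2 and -0.449 to 0.102 for Actn3; limma-voom gave -0.047 for Actn2 and 0.19 for Actn3.

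Deviations of same-numbered libraries from their group means correlated at -0.048 to 0.109 over 9 pairs. Those of different numbers correlated at -0.097 to 0.066 over 18 pairs. The replicate numbers thus gave no clear sign of pairing, which does not show that the samples were unpaired. With the replicate number as a block, 0 of the 7 genes were called in DN against SHAM, and all genes called numbered 317, 1 and 39 in the 3 comparisons. Depth limits genes with few counts, such as Lmod1 and Fos, more than the 7 genes, for which the division of reads between near-identical actins is a limit that depth does not remove.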
